A study of Mus musculus with 21 samples.

Results

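Claudins are the membrane proteins that set how tight, and for which ions, the seal between neighbouring epithelial cells is. The genes described here are the 10 members of the family Cldn1, Cldn2, Cldn3, Cldn4, Cldn5, Cldn7, Cldn8, Cldn12, Cldn15 and Cldn23, chosen by gene symbol from the 24062 genes of the count table. All 10 were present and all 10 passed the filter on low counts. They were followed through 7 groups of mouse colon, each with 3 RNA-seq libraries, in a study of colorectal tumours made with AOM/DSS (the carcinogen azoxymethane followed by dextran sulfate sodium, which inflames the colon). All animals were C57BL/6. The groups were wild-type male normal colon, wild-type male tumour, wild-type female normal colon, wild-type female tumour, knock-in male normal colon, knock-in male tumour and knock-in female normal colon. There was no knock-in female tumour group. The knock-in mice are App NL-G-F, a line made to model Alzheimer's disease in which the mouse amyloid precursor gene carries disease-linked mutations at its own locus, in all cells. The labels give tumours the treatment AOM/DSS and every normal sample no treatment, while the series text also speaks of normal tissue next to tumours, so tumour state and treatment cannot be told apart. Ages, and whether the libraries of a group came from separate animals, are not given in the sources used here, so p-values measure the spread between these libraries.

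A claudin crosses the membrane of 1 cell and pairs with claudins of the neighbouring cell to build the strands of the tight junction. Sealing claudins, among them Cldn1, Cldn3, Cldn4, Cldn5, Cldn7 and Cldn8, close the space between cells, while Cldn2 and Cldn15 form pores that let small cations through. In the colon the set of claudins differs along the crypt axis and shifts in inflammation and cancer. Cldn5 is best known as the claudin of endothelium, the lining of blood vessels.

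Cldn4, Cldn3 and Cldn15 lie on mouse chromosome 5. In wild-type tumours Cldn4 rose, while Cldn3 and Cldn15 both fell. The 250 bases before their RefSeq start sites are shown (build GRCm38.p6, the sequence of mm10). Cldn12, also on chromosome 5, fell in wild-type tumours too and is not shown. Cldn4 lies at chr5:134945119-134946934 on the minus strand and Cldn3 at chr5:134986214-134987472 on the plus strand. The gap between them is 39.3 kb, and no annotated gene of GENCODE release M21 lies wholly inside it. Cldn15 lies farther along the chromosome, at chr5:136966616-136975858 on the plus strand, and its RefSeq start is inside that span. The upstream windows are chr5:134946935-134947184 for Cldn4, chr5:134985964-134986213 for Cldn3 and chr5:136967619-136967868 for Cldn15, each read 5′ to 3′ on the strand of its gene, with matches to the AP-1 motif in capitals.
Cldn4: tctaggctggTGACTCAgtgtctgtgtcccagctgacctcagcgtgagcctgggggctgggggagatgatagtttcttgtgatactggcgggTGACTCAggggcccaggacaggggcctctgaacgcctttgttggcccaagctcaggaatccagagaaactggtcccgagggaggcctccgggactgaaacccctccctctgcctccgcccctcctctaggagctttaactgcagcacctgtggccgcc
Cldn3: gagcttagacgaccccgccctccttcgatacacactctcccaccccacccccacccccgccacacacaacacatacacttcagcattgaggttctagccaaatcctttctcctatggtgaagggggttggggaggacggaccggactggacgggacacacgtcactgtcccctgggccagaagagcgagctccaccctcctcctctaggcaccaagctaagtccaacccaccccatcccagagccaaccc
Cldn15: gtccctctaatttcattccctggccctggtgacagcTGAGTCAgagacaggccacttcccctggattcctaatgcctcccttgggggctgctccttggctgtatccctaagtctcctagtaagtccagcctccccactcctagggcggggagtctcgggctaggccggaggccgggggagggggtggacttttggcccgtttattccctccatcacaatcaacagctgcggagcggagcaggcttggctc
Capitals mark TGANTCA, searched on both strands. It was found at 2 places before Cldn4, beginning at positions -240 and -158 from the start site, at 1 place before Cldn15, at position -214, and at none before Cldn3. Of 11 RefSeq promoters that matched 8 of the members, all but Cldn8 and Cldn23 (250 bases before to 50 after a start), 2 held it, against 7.79% of 32544 different promoters of the same length. The motif CTTTGA, a form of the site that TCF/LEF factors of the Wnt pathway read, was in 0 of the 11 and in 16.0% of all promoters. The form CTTTGT was not searched, and the Cldn4 sequence above holds it, so the count does not show that such sites are absent. The GC box GGGCGG was in 8 of the 11 and in 35.9% of all. The 11 are not all separate stretches, because the windows of the Cldn12 starts overlap. The same GC box of Cldn12, at positions -13 and -73 from different starts, was counted more than once. The E-box CAGGTG, which Snail-type repressors read, was in 3 of the 11, those of Cldn4, Cldn3 and 1 of the Cldn7 starts, and in 20.3% of all. These are matches of letters only. The other members lie on chromosomes 5 (Cldn12), 8 (Cldn23), 11 (Cldn7), 16 (Cldn1, Cldn5 and Cldn8) and X (Cldn2).

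Library totals ran from 3414123 to 26174008 counts, with the lowest in wild-type male tumour replicate 2. Levels are given in CPM, the read counts divided by the TMM-scaled library size, and the weakest claudins, Cldn1 and Cldn5, had 4 to 325 and 7 to 172 counts per library, so that their values rest on far fewer reads than those of the others. Among the columns of counts, 2 of knock-in female normal colon carry the same name, and they are called replicates a and b here. App itself was counted in all groups, at means of 509.7 to 943.4 CPM. This does not check the knock-in, because its mutations are changes of bases, which counts per gene do not show. App counts did differ by genotype among male tumours, with means of 627.2 CPM (knock-in) and 943.4 CPM (wild-type). The log2 fold change was -0.59 (SE 0.16, edgeR adjusted p = 0.0251). Neither male (-0.26) nor female normal colon (0.03) passed for genotype. App rose in wild-type male tumours by 0.46 (SE 0.16, edgeR adjusted p = 0.0341). The cause of these differences was not tested. Colon epithelium was present in all 21 libraries. The summed level of 10 epithelial marker genes (Epcam, Cdh1, Krt8, Krt18, Krt19, Vil1, Cdh17, Elf3, Lgals4 and Tspan8) was 8260 to 12120 CPM in normal colon and 6293 to 9162 CPM in tumours. In bulk tissue, fewer cells of a type and less RNA per cell cannot be told apart. Sums of lymphoid (30.4 to 218 CPM), mesothelial (2.98 to 46.5 CPM), glial (3.78 to 27.3 CPM) and adipocyte markers (1.44 to 22.7 CPM) were small beside the epithelial ones, but their genes moved with some comparisons. Of 6 glial markers, 4, 2 and 2 fell in wild-type male, knock-in male and wild-type female tumours, of 6 lymphoid markers 0, 2 and 3, of 6 mesothelial markers 0, 1 and 5, and of 2 tested adipocyte markers 1, 0 and 0. Of all tested genes 19.3%, 9.97% and 24% fell in this order. In knock-in against wild-type female normal colon 4 of the 6 mesothelial markers were lower, where 7% of all genes were. The part of these cells in the claudin levels was not tested. Exons of Cldn3 overlap those of the antisense gene Wbscr25 by 40 bases, and whether the counting used strand is not given in the sources used here. The other 9 members shared no exon bases with another gene of the annotation.

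Per kilobase of exon, Cldn7 and Cldn3 were the most abundant claudins of normal colon. In wild-type male normal colon Cldn7 made up 31.7% and Cldn3 37.9% of the summed claudin CPM per kb, followed by Cldn8 with 8.88%, Cldn4 with 7.45% and Cldn2 with 6.42%. Cldn23, Cldn12 and Cldn15 each took 2.20% to 2.49%, Cldn5 took 0.515% and Cldn1 0.118%. Between the 7 groups Cldn8 and Cldn4 had the widest range of the 10 members. The group means of Cldn8 differed 15.3-fold from highest to lowest, and those of Cldn4 14.8-fold. For Cldn1 the ratio was 6.49, for Cldn15 5.15 and for Cldn5 4.26. The means of Cldn2, Cldn23, Cldn7, Cldn12 and Cldn3 stayed within 1.30-fold, 1.41-fold, 1.55-fold, 1.78-fold and 1.94-fold. With the groups put in the order of their means, libraries of all 6 neighbouring pairs overlapped for Cldn2, Cldn5 and Cldn23. For Cldn4 the top of the order was clear of overlap, with wild-type male tumours above wild-type female tumours, these above knock-in male tumours and these above knock-in male normal colon, while the 4 normal groups overlapped with their neighbours.

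**Figure D1:**
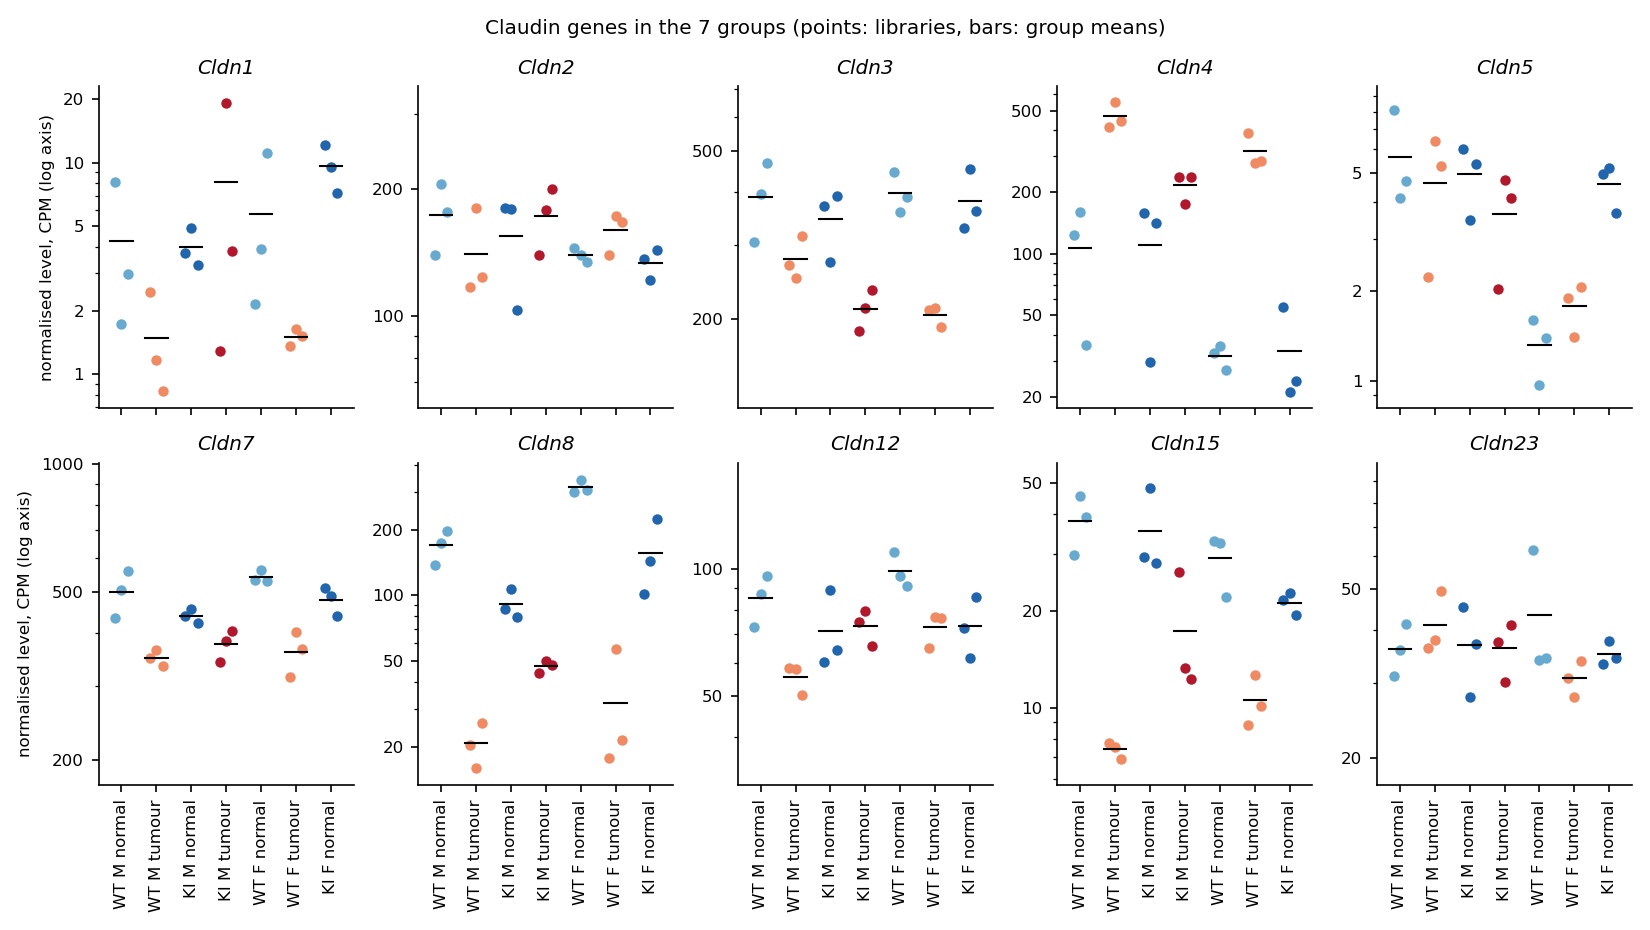
Level of each claudin gene in the 21 libraries (CPM, log axis, scale set for each gene), with points for libraries and bars for group means in the 7 groups (WT wild-type, KI knock-in, M male, F female). Cldn4 is highest in the 3 tumour groups, Cldn8 and Cldn15 are lowest there, and for Cldn2 and Cldn23 groups next to each other in the order of their means overlap.

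In wild-type male tumours 1 of the 10 claudins rose and 5 fell against normal colon (edgeR adjusted p under 0.05), where 16.5% of all tested genes rose and 19.3% fell. In wild-type female tumours the count was again 1 higher and 5 lower, where 25% and 24% of all genes were called. In knock-in male tumours 0 rose and 2, Cldn3 and Cldn15, fell, with 10.4% of all genes higher and 9.97% lower. At an unadjusted edgeR p under 0.05 the knock-in count was 0 higher and 3 lower, and by DESeq2 also 0 and 3, with Cldn8 as the added gene. The shares of all genes given above are for the edgeR adjusted threshold only. The median log2 fold change of the 10 members was -0.50, -0.12 and -0.55 for wild-type males, knock-in males and wild-type females, against medians of all tested genes of 0.0054, 0.0066 and 0.0081. The claudins that passed in wild-type males were Cldn4 (higher), Cldn8, Cldn15, Cldn12, Cldn7 and Cldn3 (lower), and those in wild-type females were the same 6 in the same directions.

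Cldn4, a sealing claudin, was the member that rose. In wild-type male tumours it stood at 418, 549.7 and 446 CPM and in wild-type male normal colon at 123, 161 and 35.7 CPM. Every tumour library was above every normal one, by a log2 fold change of 2.14 with SE 0.56 (edgeR adjusted p = 0.00797). In wild-type female tumours it was at 387, 277 and 285 CPM, against 32.9, 35.4 and 27.1 CPM in normal colon, a log2 fold change of 3.31 with SE 0.59 (edgeR adjusted p = 0.000279). All 3 tumours were well clear of the 3 normal libraries. Knock-in male tumours had 238, 176 and 237 CPM and knock-in male normal colon 159, 29.5 and 142 CPM. These groups did not overlap either, but the log2 fold change of 0.98 (SE 0.54, 95% interval -0.08 to 2.04, edgeR adjusted p = 0.206) did not pass. The male normal libraries were themselves uneven. Wild-type replicates 1 and 2 and knock-in replicates 1 and 3 had 123 to 161 CPM, and wild-type replicate 3 and knock-in replicate 2 had 35.7 and 29.5 CPM.

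Genes of the crypt base varied between the male normal libraries in the same way. The summed level of 12 crypt and Wnt target genes (Lgr5, Axin2, Ascl2, Nkd1, Notum, Sp5, Znrf3, Rnf43, Sox9, Tcf7, Cd44 and Myc) was 1192, 1348 and 566.9 CPM in wild-type male normal replicates 1 to 3 and 1551, 633.9 and 1495 CPM in the knock-in ones, low in the same libraries as Cldn4. In wild-type female normal colon the sum was 327 to 351 CPM and in knock-in female normal colon 473 to 522 CPM. Tumour libraries had 3157 to 3257 CPM in wild-type males, 2443 to 2788 CPM in wild-type females and 1483 to 2449 CPM in knock-in males. Of all tested genes 16.5%, 25% and 10.4% rose in wild-type male, wild-type female and knock-in male tumours. Of the 12 crypt and Wnt target genes, 10 rose in wild-type males, 12 in wild-type females and 1, Cd44, in knock-in males. The knock-in count is near the rate of all genes, and none of the 12 fell in any of the 3 comparisons. Among them Sp5, a Wnt target that codes for a transcription factor, rose in wild-type females by 6.66 on the log2 scale (SE 1.11, edgeR adjusted p = 0.00016), and Nkd1, a feedback inhibitor of the pathway, in wild-type males by 2.16 (SE 0.62, edgeR adjusted p = 0.0140). Whether these genes have a part in the Cldn4 levels was not tested.

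Cldn8, a sealing claudin of the distal colon, had the largest fall of the 10 members in both wild-type comparisons. In wild-type male tumours it was at 20.3, 16.0 and 25.8 CPM, and in normal colon at 138, 174 and 199 CPM. The change was -3.02 on the log2 scale (SE 0.37, edgeR adjusted p = 2.42e-05), an 8.08-fold lower level. In wild-type females tumours had 17.7, 56.6 and 21.5 CPM and normal colon 302, 343 and 306 CPM, a log2 fold change of -3.31 with SE 0.37 (edgeR adjusted p = 2.72e-06). Replicate 2 of the female tumours held about as much Cldn8 as the knock-in tumours and was still far under its normal group. Knock-in male tumours stood at 43.8, 49.8 and 47.8 CPM and their normal colon at 86.2, 107 and 79.2 CPM. There the groups did not overlap and the log2 fold change of -0.95 (SE 0.34, 95% interval -1.61 to -0.28) did not pass, at an edgeR adjusted p of 0.057. It passed in 4 of 8 other settings, with the DESeq2 test (-0.95, adjusted p = 0.0226), with only the 2 compared groups in the edgeR fit (-0.96, adjusted p = 0.0233), with the replicate number as a block (-0.98, adjusted p = 0.0328) and with library numbers of 152 and above as a covariate (-1.11, adjusted p = 0.0364).

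Cldn3 and Cldn7, the most abundant claudins of normal colon, fell less than Cldn8 in the wild-type tumours. Cldn7, which lies along the side membranes of epithelial cells and binds EpCAM, was at 349, 365 and 335 CPM in wild-type male tumours and 435, 505 and 559.8 CPM in normal colon. Those groups did not overlap, and the change was -0.52 on the log2 scale (SE 0.11, edgeR adjusted p = 0.00141). Cldn7 of wild-type females fell by 0.59 on the log2 scale (SE 0.11, edgeR adjusted p = 0.000211), from a range of 530.2 to 563 CPM to one of 314 to 401 CPM. The knock-in male value was -0.22 (SE 0.11, edgeR adjusted p = 0.148). Cldn3 fell in all 3 comparisons, by 0.48, 0.70 and 0.96 on the log2 scale for wild-type males, knock-in males and wild-type females (edgeR adjusted p = 0.0285, 0.00814 and 0.000115), each with an SE of 0.16 to 0.17. Its levels were 188 to 315 CPM in the 9 tumours and 273 to 467 CPM in the 12 normal libraries, and tumour and normal libraries overlapped only in wild-type males. The wild-type male call of Cldn3 was lost when any of 4 libraries was left out (normal replicates 2 and 3, tumour replicates 1 and 2), with log2 fold changes of -0.33 to -0.48. The knock-in male call of Cldn3 was lost in a fit of the compared groups alone (-0.71, edgeR adjusted p = 0.05465).

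Epithelial markers also changed in the tumours. Of the 10 markers, 6 fell and 1 rose in wild-type male tumours (19.3% of all genes fell and 16.5% rose), 9 fell and 1 rose in wild-type female tumours (24% and 25%), and 0 fell and 1 rose in knock-in male tumours (9.97% and 10.4%). Whether the markers differ as a set between the genotypes was not tested. The gene that rose was in each case Krt18, a keratin of simple epithelium, and Tspan8, a tetraspanin of gut epithelium, fell in both wild-type comparisons (by 1.54 and 1.70 on the log2 scale). When libraries were scaled to these 10 genes instead of by TMM, the median of all genes moved up by 0.40 in wild-type males and by 0.80 in wild-type females. The log2 fold changes then were -0.05 for Cldn3, -0.10 for Cldn7 and -0.21 for Cldn12 in wild-type males, and -0.15, 0.19 and 0.35 in wild-type females, so that the calls of all 3 ended in males, those of Cldn3 and Cldn7 ended in females, and Cldn12 passed in the other direction in females (edgeR adjusted p = 0.0146). Cldn23 of males (0.62, adjusted p = 0.0335) and Cldn5 of females (adjusted p = 0.0302) then passed as higher. Cldn4, Cldn8 and Cldn15 kept their calls and directions under this scaling in both wild-type comparisons. Relative to the geometric mean of the epithelial markers, Cldn8 of wild-type males had a log2 ratio of -1.60 ± 0.09 (SD, n = 3) in normal tissue and -4.25 ± 0.45 (SD, n = 3) in tumours, and Cldn7 one of -0.04 ± 0.01 (SD, n = 3) and -0.15 ± 0.05 (SD, n = 3).

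Among the sealing claudins Cldn1 was rare and did not pass the edgeR test in any of the 3 comparisons. Its log2 fold changes were -1.47 (SE 0.85, edgeR adjusted p = 0.189) in wild-type males, 1.03 (SE 0.76, adjusted p = 0.344) in knock-in males and -1.87 (SE 0.86, adjusted p = 0.0833) in wild-type females. The female value passed with DESeq2 (-1.93, adjusted p = 0.0272), in a fit of its 2 groups alone (-1.86, adjusted p = 0.0344) and without normal replicate 1 (-2.31, adjusted p = 0.0475). Knock-in male tumours held 1.29, 19.2 and 3.82 CPM, and the high library, replicate 2, also had the highest sum of 8 squamous epithelium markers (Krt5, Krt14, Krt6a, Krt13, Trp63, Dsg3, Krt4 and Krt1), 3791 CPM, where the other 20 libraries ran from 3.04 to 2240 CPM. Wild-type male normal replicate 1, with the second-highest squamous sum, also had the highest Cldn1 of its group, at 8.08 CPM against 1.72 and 2.98 CPM. Cldn1 is abundant in squamous epithelium. High Cldn1 was also found without squamous genes, at 11.1 CPM in wild-type female normal replicate 3 and 9.55 CPM in knock-in female normal replicate a, whose squamous sums were 3.56 and 3.04 CPM.

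Of the pore-forming claudins Cldn15 fell and Cldn2 did not pass. Cldn15 was at 7.78, 7.57 and 6.91 CPM in wild-type male tumours and 29.8, 45.5 and 39.2 CPM in normal colon, a log2 fold change of -2.36 with SE 0.29 (edgeR adjusted p = 1.59e-05). Female wild-type levels were 8.83, 12.6 and 10.1 CPM in tumours and 33.1, 32.5 and 22.1 CPM in normal colon, a fall by 1.48 on the log2 scale (SE 0.28, edgeR adjusted p = 0.000255). Neither pair of groups overlapped. Knock-in male tumours had 26.5, 13.3 and 12.2 CPM and normal colon 29.4, 48.2 and 28.3 CPM, with replicate 1 of the tumours just under the normal range. That fall, by 1.02 (SE 0.26, edgeR adjusted p = 0.0133), ended as a call without normal replicate 2, tumour replicate 2 or tumour replicate 3 (adjusted p = 0.052 to 0.0539). It also ended in a fit of the compared groups alone (-1.04, edgeR adjusted p = 0.118). Cldn2 ranged from 104 to 205 CPM over all 21 libraries, with log2 fold changes of -0.31 (95% interval -0.71 to 0.08), 0.16 (-0.23 to 0.55) and 0.20 (-0.20 to 0.59) in wild-type males, knock-in males and wild-type females. Scaled to the epithelial markers, the wild-type female value of Cldn2 became 0.98 and passed (edgeR adjusted p = 0.000106).

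Cldn12, an unusual claudin without the tail motif that binds ZO proteins, fell in wild-type males by 0.62 on the log2 scale (SE 0.15, edgeR adjusted p = 0.00454). It had 58.4, 57.9 and 50.3 CPM in these tumours and 73.0, 87.3 and 96.0 CPM in normal colon, with no overlap. In wild-type females it fell by 0.44 (SE 0.15, edgeR adjusted p = 0.0225), and left the threshold without normal replicate 1 (-0.36, adjusted p = 0.1) or tumour replicate 1 (-0.37, adjusted p = 0.0951). The knock-in male value was 0.04 (95% interval -0.26 to 0.34). Cldn23 had values of 0.19, -0.02 and -0.51 in the order wild-type males, knock-in males and wild-type females (edgeR adjusted p = 0.511, 0.957 and 0.0608). The endothelial Cldn5 had -0.35, -0.44 and 0.39 (edgeR adjusted p = 0.507, 0.423 and 0.483), at 1.40 to 6.40 CPM in all tumours.

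**Figure D2:**
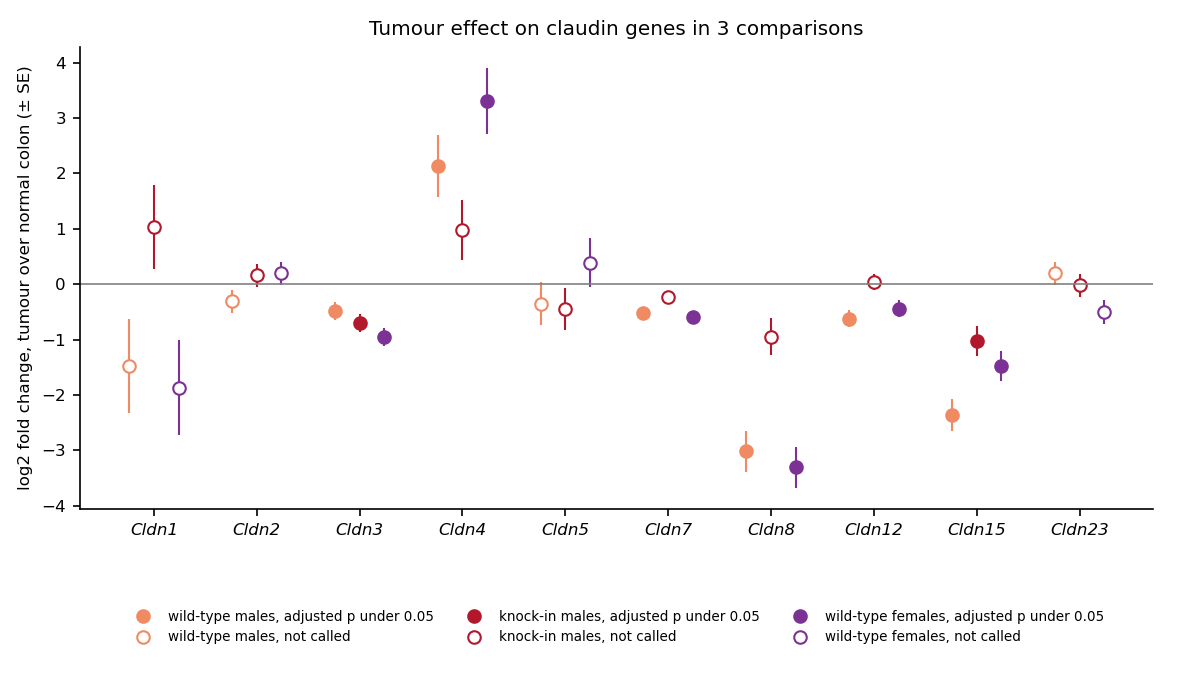
Log2 fold change of tumour over normal colon with its SE for each claudin in wild-type males, knock-in males and wild-type females, filled where the edgeR adjusted p was under 0.05. Cldn4 lies above 0 in all 3, Cldn8, Cldn15 and Cldn3 lie below 0 in all 3, and Cldn1 differs in sign between genotypes without passing.

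The make-up of the claudin pool shifted with these genes. Cldn4 took 7.45% of the summed claudin CPM per kb in wild-type male normal colon and 34.3% in tumours, 8.33% and 19.9% in knock-in males, and 2.06% and 27.9% in wild-type females. In wild-type male tumours it was the largest single share, ahead of Cldn3 with 29.4% and Cldn7 with 23.9%. Cldn8 went from 8.88% to 1.17%, from 5.57% to 3.33% and from 15.8% to 2.15% in the same order. For Cldn4, Cldn8 and Cldn3 normal and tumour libraries did not overlap in any of the 3 comparisons, and each two-sided exact permutation test gave p = 0.1, the smallest that 3 against 3 allows. The summed claudin CPM per kb itself of wild-type males was 811.5 ± 106 (SD, n = 3) in normal tissue and 753.5 ± 44.0 (SD, n = 3) in tumours, with overlap (exact p = 0.5). That of wild-type females was 850.6 ± 38.7 (SD, n = 3) and 624 ± 22.1 (SD, n = 3), without overlap (exact p = 0.1).

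**Figure D3:**
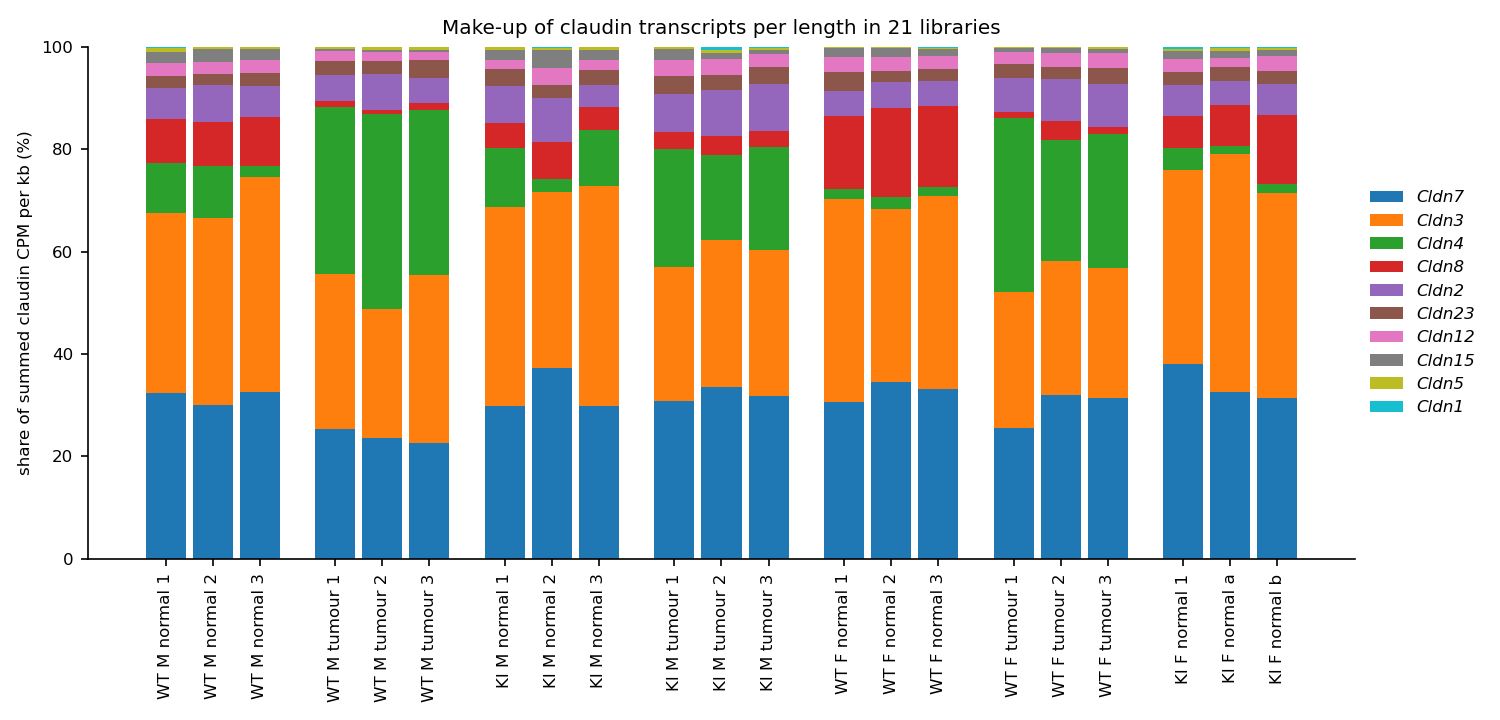
Share of each claudin in the summed CPM per kb of the 10 genes, as stacked bars for the 21 libraries in group order. The Cldn4 share is 34.3% on average in wild-type male tumours and 2.06% in wild-type female normal colon, and the Cldn8 share shrinks from 15.8% to 2.15% between wild-type female normal colon and tumours.

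Genes of the absorptive surface cells fell along with Cldn8 and Cldn15. Of 8 tested surface colonocyte markers, 7 fell in wild-type male tumours, 8 in wild-type female tumours and 5 in knock-in male tumours, and none rose. Of all tested genes 19.3%, 24% and 9.97% fell in the same order. Aqp8, a water channel, fell by 5.24, 6.85 and 2.23 on the log2 scale in wild-type males, wild-type females and knock-in males (edgeR adjusted p = 2.3e-05, 1e-06 and 0.00899). The summed level of 9 such markers was 436 to 559 CPM in wild-type male tumours, 320 to 475 CPM in wild-type female tumours, 517 to 1386 CPM in knock-in male tumours and 989 to 6653 CPM in the 12 normal libraries. Knock-in male tumour replicate 1, with the highest sum of the tumours, also had the highest Cldn15 of them. Smooth muscle genes fell too, with 8 of 8 lower in each of the 3 comparisons, and their sum was 176 to 1002 CPM in tumours and 1975 to 9563 CPM in normal colon. The part of these cell types in the claudin differences was not tested.

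**Figure D4:**
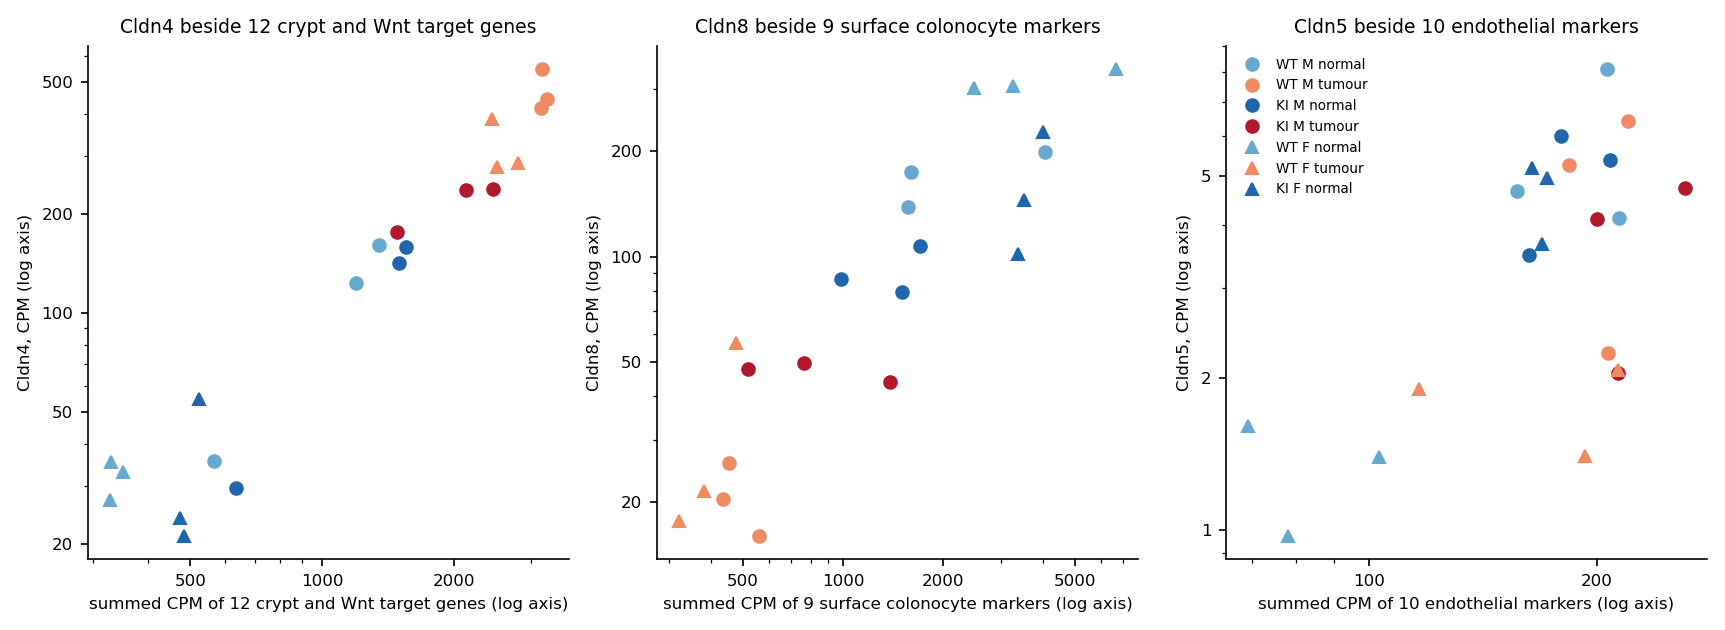
Cldn4 against the summed level of 12 crypt and Wnt target genes, Cldn8 against 9 surface colonocyte markers and Cldn5 against 10 endothelial markers, with 1 point per library and all axes in CPM on log scales (circles male, triangles female). Cldn4 is high where the crypt sum is high, as in wild-type male tumours at 3157 to 3257 CPM, and Cldn5 is lowest in wild-type female normal colon, where the endothelial sum is 69.2 to 103 CPM.

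The comparisons of genotype and sex share their libraries with the tumour comparisons above and are no separate evidence for them. Between the genotypes, male tumours differed in Cldn15 and Cldn8. Both were higher in knock-in tumours, which makes 2 of 10 claudins called higher and 0 lower, where 9.3% of all genes were higher and 5.23% lower. Cldn15 was at 26.5, 13.3 and 12.2 CPM in knock-in and 7.78, 7.57 and 6.91 CPM in wild-type tumours, a log2 fold change of 1.23 with SE 0.29 (edgeR adjusted p = 0.0126). Without knock-in replicate 1, the highest library, it was 0.75 (adjusted p = 0.0623), and the call also ended without wild-type replicate 1 or 3 (adjusted p = 0.0508 and 0.0554). The Cldn15 call ended as well in a fit of the compared groups alone (1.19, edgeR adjusted p = 0.052). Cldn8 was at 43.8 to 49.8 CPM in knock-in and 16.0 to 25.8 CPM in wild-type tumours, a log2 fold change of 1.16 with SE 0.35 (edgeR adjusted p = 0.0382). Its call was lost whichever of the 6 libraries was left out, at values of 1.03 to 1.35 (adjusted p = 0.0614 to 0.12). Of the others, Cldn1 was at 2.38 (SE 0.85, edgeR adjusted p = 0.0666), and Cldn4 at -1.12 (SE 0.54, edgeR adjusted p = 0.165) although its groups did not overlap. Cldn1 was at 0.65 without knock-in replicate 2, and it passed without knock-in replicate 1 (2.83, adjusted p = 0.0292) and with DESeq2 (2.40, adjusted p = 0.0148). With only these 2 groups in the fit Cldn4 passed (-1.15, adjusted p = 0.0141).

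The tumour effect itself was compared between genotypes in males as an interaction. Cldn8 was the 1 claudin past the threshold, where 1.51% of all genes passed. Its tumour effect was less negative in knock-in males by 2.07 on the log2 scale (SE 0.49, edgeR adjusted p = 0.0474). Knock-in males had less Cldn8 in normal colon (79.2 to 107 against 138 to 199 CPM) and more in tumours. The call was kept in 3 of 8 other settings and in 2 of 12 fits that left out a library, those without knock-in normal replicate 2 or knock-in tumour replicate 3, with values between 1.72 and 2.26 and adjusted p up to 0.138. For Cldn15 the interaction was 1.34 (SE 0.39, edgeR adjusted p = 0.0647), for Cldn12 0.66 (SE 0.22, adjusted p = 0.0853) and for Cldn4 -1.16 (SE 0.76, adjusted p = 0.348). Cldn4, Cldn7, Cldn8 and Cldn12 passed in wild-type but not in knock-in males, and of these the difference itself passed for Cldn8 only.

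In normal colon of males 0 claudins passed between genotypes, where 0.0126% of all genes did. At an unadjusted edgeR p under 0.05 it was 1, Cldn8, and by DESeq2 0. Shares of all genes between genotypes in normal colon are for the edgeR adjusted threshold only. Cldn8 had the change farthest from 0, with a log2 fold change of -0.91 (SE 0.34, 95% interval -1.56 to -0.25, edgeR adjusted p = 1) and no overlap between its groups. In normal colon of females Cldn5 was higher and Cldn8 lower in knock-in mice, where 8.97% of all genes were higher and 7% lower. These counts of claudins are near the rate of all genes. Cldn8 had 101, 145 and 226 CPM in replicates 1, a and b of the knock-in group and 302, 343 and 306 CPM in wild-type, a log2 fold change of -1.01 with SE 0.33 (edgeR adjusted p = 0.0499). The groups did not overlap, but the value sat at the threshold and passed in 3 of 7 other settings and in 1 of 6 fits without a library, the one without knock-in replicate b (-1.36 there, and -0.76 without knock-in replicate 1). Cldn5 had 4.94, 5.17 and 3.68 CPM in knock-in and 1.61, 0.976 and 1.39 CPM in wild-type females, a log2 fold change of 1.74 with SE 0.41 (edgeR adjusted p = 0.00903) that no longer passed without wild-type replicate 2 (1.58, adjusted p = 0.0512). For the difference of the genotype effect between the sexes in normal colon, 0 claudins passed the edgeR test, where 2.54% of all genes did. Cldn5, at 1.95 (SE 0.56, adjusted p = 0.0688), was the 1 claudin at an unadjusted p under 0.05 and the 1 called by DESeq2.

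The sexes differed in 2 claudins of wild-type normal colon and in none elsewhere. Females had lower Cldn5 (by -2.05 on the log2 scale, SE 0.41, edgeR adjusted p = 0.00297) and lower Cldn4 (-1.74, SE 0.56, adjusted p = 0.0467), where 5.74% of all genes were higher and 10.2% lower. The Cldn5 levels were 0.976 to 1.61 CPM in females and 4.12 to 8.12 CPM in males, with no overlap. The Cldn4 levels were 27.1 to 35.4 CPM in females and 35.7 to 161 CPM in males, where the lowest male library all but met the highest female one. The Cldn4 call passed in 4 of 8 other settings and in 1 of 6 fits without a library, the one without male replicate 3. It was -1.34 without male replicate 2 (adjusted p = 0.172). In wild-type tumours 0 claudins passed (0.86% of all genes), with Cldn5 at -1.31 (SE 0.42, edgeR adjusted p = 0.0991) and Cldn4 at -0.57 (SE 0.54, adjusted p = 0.571). In knock-in normal colon 0 passed (0.584% of all genes), with Cldn4 at -1.71 (SE 0.56, adjusted p = 0.155), close in size to the wild-type value. As an interaction of sex with tumour state in wild-type mice, 0 claudins passed, where 1.12% of all genes did. In these 3 tests edgeR had 3, 3 and 2 claudins at an unadjusted p under 0.05, and DESeq2 called 0 in each. Their shares of all genes are for the edgeR adjusted threshold only.

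Vessel and crypt genes moved with both of these claudins. Of all tested genes 10.2% were lower in female than in male wild-type normal colon. In knock-in against wild-type female normal colon 8.97% were higher. Of 10 endothelial markers (Pecam1, Cdh5, Kdr, Tek, Tie1, Emcn, Erg, Egfl7, Esam and Sox18), 9 were lower in female than in male wild-type normal colon, and 8 were higher in knock-in than in wild-type female normal colon. Their sum was 69.2 to 103 CPM in wild-type female normal colon, 157 to 214 CPM in wild-type male normal colon and 164 to 172 CPM in knock-in female normal colon. Sox18, a transcription factor of vessel endothelium, had log2 fold changes of -2.74 (edgeR adjusted p = 0.000442) and 1.87 (0.00774) in these comparisons. Relative to the geometric mean of the endothelial markers, Cldn5 had a log2 ratio of -1.44 ± 0.53 in wild-type males, -2.14 ± 0.47 in wild-type females and -1.48 ± 0.28 in knock-in females (SD, n = 3 each, normal colon). In replicates 1 to 3 of wild-type female tumours this ratio was -2.25, -3.39 and -2.92. It was -2.76, -1.27 and -1.33 in wild-type male and -3.06, -2.11 and -1.86 in knock-in male tumours. Of the 12 crypt genes, 11 were lower in wild-type females than in wild-type males, in normal colon. The part of vessels or crypt cells in these differences was not tested.

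**Figure D5:**
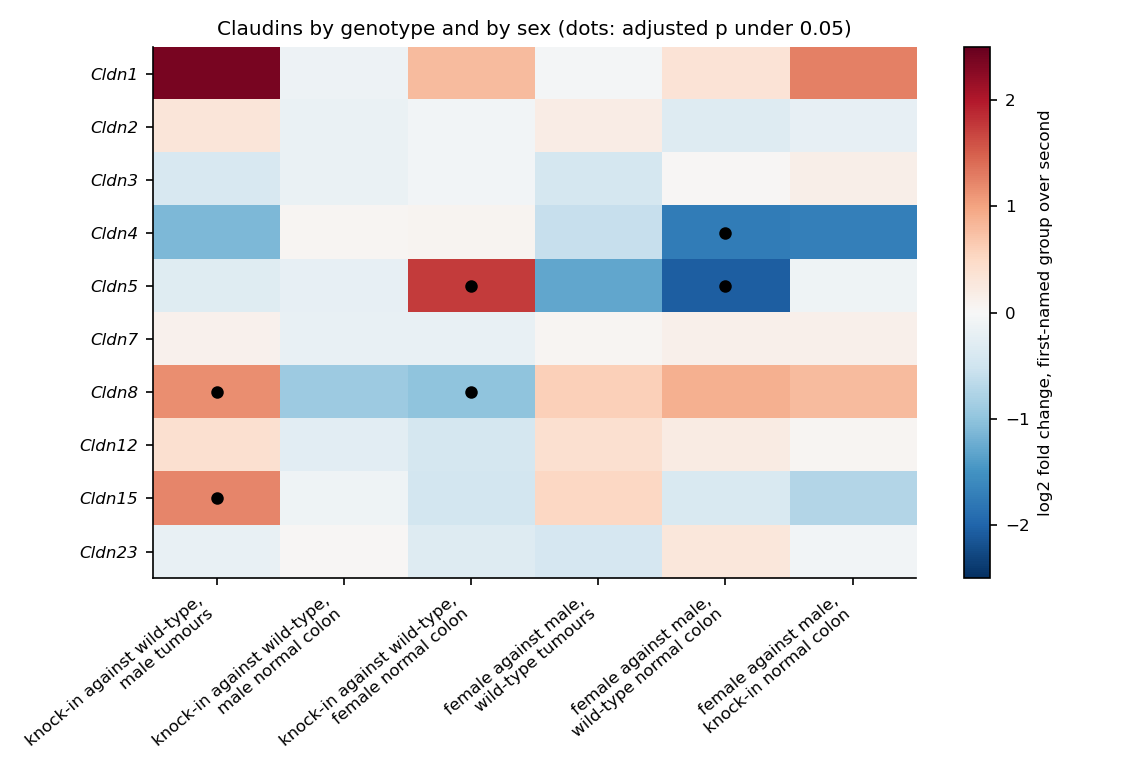
Log2 fold changes of the 10 claudins in the 3 comparisons of knock-in with wild-type and the 3 of females with males (colour scale from -2.5 to 2.5, red where the first-named group is higher), with dots where the edgeR adjusted p was under 0.05. The 6 dots lie on Cldn4, Cldn5, Cldn8 and Cldn15.

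Of 18 other claudin genes in the table, 5 had enough counts to be tested. Cldn14, a further sealing claudin, fell in all 3 tumour comparisons, by 1.65 (SE 0.32, edgeR adjusted p = 0.000815) in wild-type males, 1.97 (SE 0.31, adjusted p = 0.00176) in knock-in males and 2.17 (SE 0.33, adjusted p = 3.76e-05) in wild-type females on the log2 scale. Its libraries held 7 to 39 and 26 to 56 counts in wild-type male and knock-in male tumours, and 9 to 26 in wild-type female tumours. Cldn6 and Cldn18 passed in wild-type female tumours on 5 to 22 and 3 to 8 counts per tumour library, with 0 counts in each of the normal libraries. They are named here after their values were seen, because so few counts make the calls uncertain. The row named Cldn25 is left aside, since that symbol has stood for more than 1 gene.

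Of 27 tested partners of claudins at the tight junction, 4 rose and 6 fell in wild-type male tumours (16.5% of all genes rose and 19.3% fell), 3 rose and 6 fell in knock-in male tumours (10.4% and 9.97%), and 5 rose and 12 fell in wild-type female tumours (25% and 24%). The wild-type male counts are near the rate of all genes. The partners had median log2 fold changes of -0.09, -0.0018 and -0.17 in this order. Amot and Amotl1, which code for angiomotins, scaffold proteins of the junction, rose in all 3 (Amot by 1.52, 0.78 and 2.30 and Amotl1 by 0.67, 0.42 and 1.38 on the log2 scale, in the order wild-type males, knock-in males and wild-type females). Ildr1, an angulin of the corners where 3 cells meet, fell by 1.14, 0.62 and 1.78 in the same order. Mpdz, a scaffold with many PDZ domains that binds claudin tails, fell by 1.87 in wild-type males (SE 0.25, edgeR adjusted p = 3.14e-05) and 0.71 in knock-in males (SE 0.23, adjusted p = 0.0365), and it was higher in knock-in than in wild-type tumours by 1.15 (SE 0.25, adjusted p = 0.00962). At the adherens junction 2 of 8 genes rose and 2 fell in wild-type males, 1 rose and 0 fell in knock-in males and 2 rose and 4 fell in wild-type females. Ctnnb1, the gene of β-catenin, rose in all 3, by 0.53, 0.47 and 0.58. Cdh1, the gene of E-cadherin and also 1 of the epithelial markers above, fell by 0.45 and 0.56 in wild-type males and females.

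Among 20 genes that are known to act on claudins, 0 rose and 10 fell in wild-type male tumours, where 16.5% of all genes rose and 19.3% fell. In knock-in male tumours 1 rose and 5 fell (10.4% and 9.97% of all genes), and in wild-type female tumours 3 rose and 12 fell (25% and 24%). The medians of the list were -0.56, -0.37 and -0.59. Vdr, the vitamin D receptor, which is known to induce Cldn2, fell by 2.70 (SE 0.34, edgeR adjusted p = 2.82e-05), 1.49 (SE 0.32, adjusted p = 0.00583) and 3.10 (SE 0.34, adjusted p = 2.55e-06) in wild-type males, knock-in males and wild-type females. Klf4, a factor of differentiated colonocytes, fell by 1.98, 0.91 and 2.69 in the same order. Snai2, which codes for a Snail-type repressor of junction genes, rose in knock-in male tumours by 1.67 (SE 0.39, edgeR adjusted p = 0.00769), from 2.19 to 7.03 CPM.

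For each claudin the 2 genes of most similar level across the 21 libraries were found by Pearson's r of log2 CPM. The libraries share groups, depth and tissue make-up, so r is a description only. On differences from group means r was 0.65 to 0.92 for the 20 genes found. For Cldn4 these were Tnfrsf11b (r = 0.98), which codes for the decoy receptor osteoprotegerin, and the keratin Krt23 (r = 0.98). Cldn8 was most like Bcl2l14 and Arhgap26 (0.98 and 0.98). Nucb1 and Ccdc85c came nearest to Cldn3 (0.95 and 0.95), and Scamp2 and Lypd8 to Cldn7 (0.96 and 0.95). Cldn15 was nearest to Pde2a (0.94) and to Atoh1 (0.93), the transcription factor of secretory cells. Elovl7 and Pigc (0.94 and 0.93) followed Cldn12, and Fzd7 and C1ra (0.91 and 0.90) followed Cldn5. Cldn1 was nearest to Adh7 (0.89), an alcohol dehydrogenase of squamous and stomach lining, and to Grp (0.88). The weakest likeness was found for Cldn2 (0610040J01Rik at 0.79, Pomt2 at 0.74) and Cldn23 (Sowaha at 0.72, Mmp15 at 0.66).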

How the data were processed

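Mouse colon RNA-seq was used as raw counts per gene, deposited by the authors in 1 table of 24062 genes and 21 libraries. Per the labels' protocols, total RNA was depleted of ribosomal RNA with RNase H and primed with random hexamers. Per the submitters' processing notes, Trimmomatic, HISAT2, featureCounts and DESeq2 were used with build mm10. Versions and the strand setting are not given in the sources used here. Counts were fitted with edgeR 4.0.16 (R 4.3.3) as quasi-likelihood models with TMM scaling, 1 coefficient per group and all 21 libraries, after filterByExpr left 15936 genes. P-values were adjusted by Benjamini-Hochberg over these genes, with a threshold of 0.05, in 9 pairwise comparisons and 3 interactions. Each SE is the size of the log2 fold change divided by the square root of its edgeR F statistic, and was not reported by the fit itself. Intervals of 95% are normal intervals from this SE, which makes them somewhat narrower than the F test would give. The scripts were tested on simulated data. CPM used TMM-scaled library sizes, log2 CPM a prior count of 2, and levels per kb GENCODE M21 exon lengths. Genes named from a list were among the 2 highest and 2 lowest log2 fold changes of a comparison that passed the threshold, with a mean of at least 50 counts in 1 group, except Cldn6 and Cldn18. The members and the gene lists were chosen with earlier results of these data known. Alternatives were DESeq2 1.42.0 size factors and its Wald test, library totals, scaling to epithelial markers, no low-count filter, only the compared groups, a replicate block, library numbers of 152 and above as a covariate, and leaving out each library. Deviations of same-numbered libraries from their group means correlated at 0.17, 0.17 and 0.21 in wild-type male tumour against normal. Between knock-in and wild-type male normal colon, which share no animal, replicate 1 reached 0.46 and replicate 2 -0.21. Libraries of unlike numbers were not compared, so these values cannot show whether replicate numbers pair samples. The labels do not say that a number marks 1 animal.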

Additional observations from a re-analysis of the deposited data

Results flagged for a closer look

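The tumour effect of Cldn8 passed a test of the difference between the genotypes in males, close to the threshold. It was less negative in knock-in than in wild-type males by 2.07 on the log2 scale (SE 0.49, edgeR adjusted p = 0.0474), from tumour effects of -0.95 and -3.02. The call was lost in 5 of 8 other settings, the replicate block among them (adjusted p = 0.0548), and in 10 of 12 fits that left out a library, with the same direction in all. The values of all 3 knock-in male tumours lay between those of the wild-type male tumours and the knock-in male normal libraries. This was the 1 claudin result picked out by the check for differing groups, which took interactions past the threshold. No check for outlying samples was made, because no group here has the 4 samples that it needs.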

How the results depend on the processing

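Cldn4, Cldn8 and Cldn15 kept direction and call in wild-type male and wild-type female tumours under all 8 other settings and each of 6 left-out libraries. The number of claudins called changed as follows. For wild-type male tumours it was 6, and 4 with epithelial scaling. For wild-type female tumours it was 6, and 7 with the DESeq2 test or in a fit of these groups alone, and 5 with library totals or with library numbers of 152 and above as a covariate. For knock-in male tumour against normal it was 2, and 1 in a fit of these groups alone, and 3 with the DESeq2 test and with the covariate. The 1 in the fit of these groups alone was Cldn8 (edgeR adjusted p = 0.023). Both main calls, Cldn3 and Cldn15, were lost there (edgeR adjusted p = 0.05465 and 0.118). For knock-in against wild-type the count was 2 in male tumours, and 1 with no low-count filter or with the covariate, and 3 with the DESeq2 test. Some settings kept this count with other genes. Epithelial scaling lost Cldn8 (edgeR adjusted p = 0.0638) and gained Cldn3 as lower (-0.60, edgeR adjusted p = 0.0447). The fit of the compared groups alone lost Cldn15 (edgeR adjusted p = 0.052) and gained Cldn4 as lower (edgeR adjusted p = 0.0141). In female normal colon the genotype count was 2, and 1 each with DESeq2 size factors, library totals, epithelial scaling and no low-count filter, and 3 in a fit of these groups alone. For female against male it was 0 in wild-type tumours and 1 in a fit of those groups alone. In wild-type normal colon it was 2, and 4 with epithelial scaling, 1 with no low-count filter, 1 with the covariate and 3 with the DESeq2 test. The fit of those groups alone lost Cldn4 (edgeR adjusted p = 0.0551) and gained Cldn8 (edgeR adjusted p = 0.0175). For the interaction of genotype and tumour the count was 1, and 0 with DESeq2 size factors, epithelial scaling, no low-count filter and the covariate, and 2 with the DESeq2 test. The interaction of sex and tumour went from 0 to 2 with epithelial scaling, and that of genotype and sex in normal colon from 0 to 1 with the DESeq2 test. Leaving out 1 library gave 5 to 6 calls for wild-type male tumours, 1 to 2 for knock-in male tumours, 5 to 7 for wild-type female tumours, 0 to 1 for genotype in male tumours, 0 to 3 in female normal colon, 1 to 2 for sex in wild-type and 0 to 1 in knock-in normal colon, and 0 to 3 and 0 to 1 for the interactions of genotype with tumour and with sex. Epithelial scaling turned 2 called values, Cldn7 (0.19) and Cldn12 (0.35) in wild-type female tumours, and by its construction moved every gene, by 0.80 at the median there. For the other changes the cause was not tested.

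With the replicate number as a block (18 numbered libraries), 6 claudins were called in wild-type male tumours as without it, 3 in knock-in male tumours (2 without it, with Cldn8 gained at -0.98, edgeR adjusted p = 0.0328), 1 for sex in wild-type normal colon and 0 for the interaction of genotype and tumour, and 86 of 90 member values kept direction and call. No paired analysis was possible for the comparisons with knock-in female normal colon, because 2 of its columns carry no number of their own. Depth limits Cldn1 and Cldn5 most, which had as few as 4 and 7 counts in a library.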
